A study of Mus musculus with 9 samples.

Results

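The comparison set HS3A8-high megakaryocyte-erythroid progenitors (MEPs) against mock-sorted total MEPs of mouse bone marrow, and asked which transcripts are depleted or enriched when the 50% of MEPs with the most binding of HS3A8, an scFv antibody against heparan sulfate (HS), are taken out of the whole population. It used 6 of the 9 libraries of the series, 3 of HS3A8-high MEPs and 3 of MEPs sorted with MPB49, an scFv with no known epitope. Of 35275 gene identifiers in the count table, 11486 passed the count filter in these 6 libraries and all of them were compared. MEPs of both groups were gated as Lin-ckit+CD34-FcγRII/IIIlo, where the lineage stain of the study's methods covered T and B cell antigens, the granulocyte and monocyte antigens CD11b and Gr-1, and Ter-119 of red cells, and 25000 sorted cells were given per library. The labels name no allele, drug or time point in either group. The study's methods list wild-type C57Bl/6 mice among others and an age of 6 to 12 weeks with matched sex, and the labels do not say which strain or which animal a library came from. The study's text describes the HS3A8-high and HS3A8-low libraries as coming from individual mice and does not speak of the controls there. The p-values measure the spread between these libraries. In bulk RNA, fewer cells of a type and less RNA of a gene per cell cannot be told apart. The control is the whole population, HS3A8-high cells included. Apart from spread between libraries, and with equal RNA per cell, a transcript can thus rise by a log2 fold change of about 1 at most. A fall has no such limit.

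MEPs stand at the branch point between red cells and megakaryocytes, the large marrow cells that release platelets. The erythroid branch is run by GATA1, TAL1 and KLF1 and fills the cell with heme enzymes, globins and a spectrin membrane skeleton. The megakaryocytic branch uses FLI1, RUNX1 and MEIS1 and puts platelet integrins, granule proteins and thrombin and ADP receptors in place. HS is a sulfated sugar chain carried by core proteins such as glypicans. It is built on a linker of 4 sugars, lengthened by the exostosins, and then sulfated at chosen positions, and it is these sulfation patterns that scFv antibodies such as HS3A8 read.

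The smallest library held 12298438 counts and the largest 15841533, so that finding no count in a library allows 3 counts, or a level of 0.189 to 0.244 CPM (counts relative to the library total). All CPM below were scaled by TMM, a normalization that aligns the bulk of genes between libraries. Replicate 1 of the control stood apart. Its log2 CPM correlated with the other 5 libraries at r from 0.9 to 0.934, against 0.956 to 0.986 among those 5, with r taken over genes, which are not independent. Among genes of at least 5 CPM its values lay 0.44 (log2) above the 6-library median in the 2243 genes with the shortest transcripts and -0.5 (log2) from it in the 2239 with the longest, where the other libraries lay between -0.14 and 0.18. Ribosomal protein genes, which are short, summed to 119500 CPM in it and to between 37720 and 50970 CPM elsewhere. Replicate 3 of HS3A8-high carried transcripts of granulocytes and monocytes at a summed 2091 CPM, against 15.6 and 30.6 CPM in the other HS3A8-high libraries and 129 to 242 CPM in the controls. Because of these libraries, the comparisons of gene lists and the genes most moved by either are given with and without it.

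Under edgeR's quasi-likelihood test with Benjamini-Hochberg adjustment over all genes, 2 genes passed an adjusted p of 0.05, which is 0.0174% of those tested. Both fell in HS3A8-high MEPs, and 0 rose. Before adjustment, 482 genes were lower and 80 higher with p under 0.05, together 4.89% of those tested. The smallest adjusted p of any gene higher in HS3A8-high was 0.456. By DESeq2, the tool of the study, 138 genes were lower (1.2% of those tested) and 0 higher.

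Ctla2a, which encodes an inhibitor of cysteine cathepsins, stood at 1.04, 1.27 and 2.61 CPM in HS3A8-high replicates 1, 2 and 3 and at 121, 55.1 and 69.7 CPM in the controls. Every HS3A8-high library was far below every control, with means of 1.64 ± 0.848 and 81.9 ± 34.6 CPM (SD, n = 3 each). The log2 fold change was -5.63 ± 0.479 (SE), a 49.7-fold lower level, with an adjusted p of 0.0388 by edgeR. Ctla2a lies at chr13:60934155-60936625 (GRCm38, minus strand), and 16.3% of its exonic bases overlap another gene. Its near copy Ctla2b showed the same picture at a lower level, with means of 0.0217 and 4.53 CPM, and the counting of reads that fit both copies is not known.

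Ifitm1, a member of the interferon-induced transmembrane family, stood at 2.69, 3.58 and 4.17 CPM in HS3A8-high and at 23.4, 29.8 and 26.8 CPM in the controls. The groups were far apart and tight, at 3.48 ± 0.749 and 26.7 ± 3.19 CPM (SD, n = 3 each). The log2 fold change was -2.94 ± 0.246, a 7.66-fold lower level, again with an adjusted p of 0.0388 by edgeR. The gene lies at chr7:140967221-140969825 (GRCm38, plus strand). Its neighbours in the family were near 0, with log2 fold changes of -0.11 for Ifitm2, whose groups did not overlap either, and -0.01 for Ifitm3. Both calls depended on the libraries: leaving out any HS3A8-high replicate, or control replicate 2 or 3, left 0 genes called by edgeR, with 368 to 1076 at an unadjusted p under 0.05, while leaving out control replicate 1 gave 5, namely Ctla2a, Ifitm1, Itga2b, Meis1 and Apoe. With each library's trend over transcript length removed, chosen after seeing the data, edgeR called 3 genes, with Ctla2a (adjusted p = 0.00466) but not Ifitm1 (adjusted p = 0.0855). The adjusted p ran from 6.23e-31 to 0.469 over all alternatives for Ctla2a and from 6.36e-25 to 0.469 for Ifitm1. With 1 library left out at a time the log2 fold changes ran from -6.14 to -5.24 for Ctla2a and from -3.09 to -2.78 for Ifitm1.

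**Figure D1:**
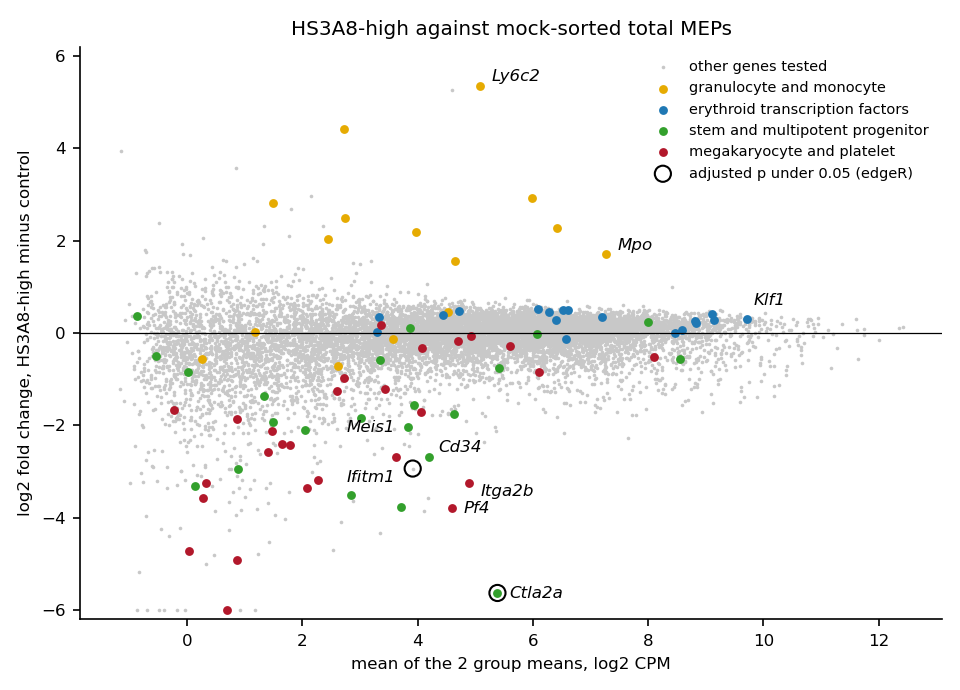
Each point is 1 of the 11486 genes, with the mean level of the groups in log2 CPM on the x axis and the log2 fold change of HS3A8-high minus control on the y axis; 9 genes beyond 6 either way are drawn at the edge. The circled genes, Ctla2a at -5.63 and Ifitm1 at -2.94, passed the test. Megakaryocyte and stem cell genes lie mostly below 0 and erythroid factors close above it, while the granulocyte and monocyte genes above 0 are high in 1 HS3A8-high library.

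The promoters of these genes and of the platelet genes Itga2b and Pf4 follow, as the regulatory sequence of 4 transcripts with wide gaps between the groups. They are RefSeq sequence of GRCm38.p6 on the strand of the gene, 5′ to 3′, up to the last base before the start of transcription, except that of Ifitm1, which ends 37 bases before it where an annotated transcript begins. Capitals mark every match, on either strand, to 3 motifs: AGATAA, bound by GATA factors, GGAAGT, bound by ETS factors such as FLI1, and CCACCC, bound by Krüppel-like factors. The strand is minus for Ctla2a (chr13:60936626-60936875) and Itga2b (chr11:102469884-102470133) and plus for Ifitm1 (chr7:140967826-140968039) and Pf4 (chr5:90772185-90772434).
Ctla2a: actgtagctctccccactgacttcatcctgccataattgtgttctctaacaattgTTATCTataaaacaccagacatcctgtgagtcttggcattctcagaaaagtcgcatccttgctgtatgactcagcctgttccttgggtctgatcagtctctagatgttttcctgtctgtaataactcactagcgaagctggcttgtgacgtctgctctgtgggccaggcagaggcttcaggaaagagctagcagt
Ifitm1: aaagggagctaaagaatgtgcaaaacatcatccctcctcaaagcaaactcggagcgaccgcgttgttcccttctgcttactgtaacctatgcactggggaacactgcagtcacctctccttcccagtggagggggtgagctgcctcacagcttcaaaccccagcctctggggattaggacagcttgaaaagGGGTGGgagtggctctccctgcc
Itga2b: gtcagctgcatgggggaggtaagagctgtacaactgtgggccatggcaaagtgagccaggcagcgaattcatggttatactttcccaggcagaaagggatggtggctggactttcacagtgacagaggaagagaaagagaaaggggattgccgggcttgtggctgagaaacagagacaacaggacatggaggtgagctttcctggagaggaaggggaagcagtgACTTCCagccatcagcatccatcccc
Pf4: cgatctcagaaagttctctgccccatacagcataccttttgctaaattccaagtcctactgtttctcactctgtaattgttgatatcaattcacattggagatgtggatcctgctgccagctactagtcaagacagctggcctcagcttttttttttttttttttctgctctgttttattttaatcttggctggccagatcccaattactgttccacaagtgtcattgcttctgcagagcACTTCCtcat
Each window holds 1 match. Distances are counted from the RefSeq start. The RefSeq start of Ifitm1, and with it the window, lies within the GENCODE span given above, so an annotated start lies upstream of it. The Ctla2a window holds AGATAA, starting 195 bases before the start and read on the reverse strand as TTATCT. The Ifitm1 window holds CCACCC as its reverse GGGTGG, 59 bases before the start. The Itga2b and Pf4 windows hold GGAAGT as its reverse ACTTCC, 26 and 10 bases before the start. In the reference, 8771 of the 11486 genes tested had a promoter window of 250 bases before to 50 after the start, and among these 7.73% held AGATAA, 33.6% GGAAGT and 40.4% CCACCC on either strand. With under 80% of the genes covered, a comparison of these shares between called and other genes is void, and these shares stand as background only.

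Megakaryocyte genes were mostly lower in HS3A8-high. Of 34 listed megakaryocyte and platelet genes, 27 were tested and 7 were below the filter. Of those tested, 26 had a negative log2 fold change and 19 were lower in every HS3A8-high library than in every control, where 7.19% of all genes tested were. Their median log2 fold change was -2.12, against -0.003 over all genes, and it was -1.94 without control replicate 1 and -2.67 without HS3A8-high replicate 3. No member passed edgeR's adjusted p of 0.05, and 11 passed by DESeq2, which called 1.2% of all genes tested.

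The study checked megakaryocytic genes by RT-PCR between HS3A8-high and HS3A8-low MEPs, which is not the comparison made here. The 4 of them followed here were all lower than in the mock-sorted controls without overlap. Itga2b, the αIIb chain of the platelet fibrinogen receptor, stood at 7.75, 4.26 and 5.02 CPM in HS3A8-high and at 70.5, 44 and 47.4 CPM in the controls. The lowest control library was thus far above the highest HS3A8-high library. The log2 fold change was -3.24 ± 0.311, with an adjusted p of 0.0581 by edgeR, and 7.7e-18 to 0.256 over the alternatives. Itgb3, the β3 chain that pairs with it, was scarce, with 0.305, 0 and 2.8 CPM against 3.75, 5.41 and 4.48 CPM, and a log2 fold change of -2.12 ± 1.15 (adjusted p = 0.733 by edgeR).

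Pf4, the chemokine platelet factor 4 of the alpha granule, stood at 4.58, 3.29 and 1.83 CPM in HS3A8-high and 86.4, 21.8 and 27.9 CPM in the controls. Control replicate 1 was far above the other controls here. The log2 fold change was -3.8 ± 0.639 with all 6 libraries and -2.93 without control replicate 1 (adjusted p = 0.213 and 0.104 by edgeR, and 1.08e-07 to 0.824 over the alternatives). Fli1, the ETS factor of megakaryocytes, stood at 8.67, 6.2 and 13 CPM against 16.4, 24.6 and 23 CPM. Its log2 fold change of -1.2 ± 0.319 did not pass edgeR's test either (adjusted p = 0.591). Leaving out control replicate 1 and HS3A8-high replicate 3 together, chosen after seeing the data, edgeR called 175 genes, all lower in HS3A8-high (1.52% of 11500 tested), and all 4 of these genes were among them, with log2 fold changes of -2.9 for Itga2b, -2.63 for Pf4, -1.66 for Fli1 and -4.82 for Itgb3.

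Receptors and signalling proteins of platelets made up much of the rest of the list. P2rx1, an ATP-gated channel of platelets, had 0 counts in all 3 HS3A8-high libraries and 1.7, 4.28 and 3.76 CPM in the controls, at least 16.1-fold lower when 0 is set to 3 counts per library. F2rl2, a protease-activated receptor, had 0.305, 0 and 0 CPM against 4.38, 2.7 and 3.54 CPM. Trpc6, a calcium channel, had a mean of 0.0656 CPM against 1.98 CPM. Such levels are at or near the limit of what these libraries can count, and no finer ranking of them is possible. These genes and those of the next sentences, apart from Rap1b and F2r, were chosen after their values were seen.

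At higher levels, Cd9, a tetraspanin of platelets, stood at 7.57, 6.5 and 9.06 CPM against 37.2, 21.5 and 17.6 CPM (log2 fold change -1.72). Plek, which encodes pleckstrin, a major protein kinase C substrate of platelets, stood at 4.88, 0.896 and 4.11 CPM against 13.1, 26.3 and 24.5 CPM (log2 fold change -2.68). The most abundant members differed less. F2r, the thrombin receptor PAR1, stood at 63.9, 46 and 36.8 CPM against 69.9, 106 and 89 CPM, a log2 fold change of -0.85 ± 0.251. Rap1b, the small GTPase of integrin activation, was at -0.53 with all libraries and -0.13 without control replicate 1. The glycoprotein genes of the von Willebrand factor receptor were uneven. Gp1bb, chosen after its values were seen, stood at 0.672, 0 and 0 CPM against 2.5, 1.7 and 2.67 CPM, lower without overlap, but 92.9% of its exonic bases overlap another gene. Gp5 was at -0.28, Gp9 at -0.98 and Gp1ba, the 1 gene of the list with a positive value, at 0.18, all with overlapping groups, and at -0.11, -0.6 and 0.29 without control replicate 1.

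Among 13 transcription factors of the megakaryocytic branch, the difference was uneven. Meis1, a homeobox factor of stem cells and megakaryocytes, stood at 4.76, 4.78 and 3.46 CPM in HS3A8-high and 17.8, 28 and 22.8 CPM in the controls, a log2 fold change of -2.4 ± 0.266 (adjusted p = 0.0755 by edgeR, and 6.36e-13 to 0.616 over the alternatives). Gata2, the GATA factor of earlier progenitors, stood at 137, 143 and 130 CPM against 156, 200 and 184 CPM, a small gap of -0.39 ± 0.145 without overlap. Nfe2, needed for platelet release, was at -0.2 and Mef2c at -0.89. Of the 13, 5 had a positive log2 fold change with all libraries and 2 without control replicate 1. Runx1 was at 0.13, Etv6 at 0.02 and Gabpa, an ETS factor of broad use, at 0.08, with overlapping groups, and these turned to -0.2, -0.27 and -0.17 without control replicate 1. Mafk stood at 130, 115 and 122 CPM against 89.3, 116 and 120 CPM. Mafg stood at 59.4, 41.6 and 47.8 CPM against 29.7, 49.2 and 44.9 CPM, and both overlapped between groups. In all, 6 of the 13 were lower without overlap, against 7.19% of all genes tested, and the median was -0.2. Without control replicate 1 it was -0.27.

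**Figure D2:**
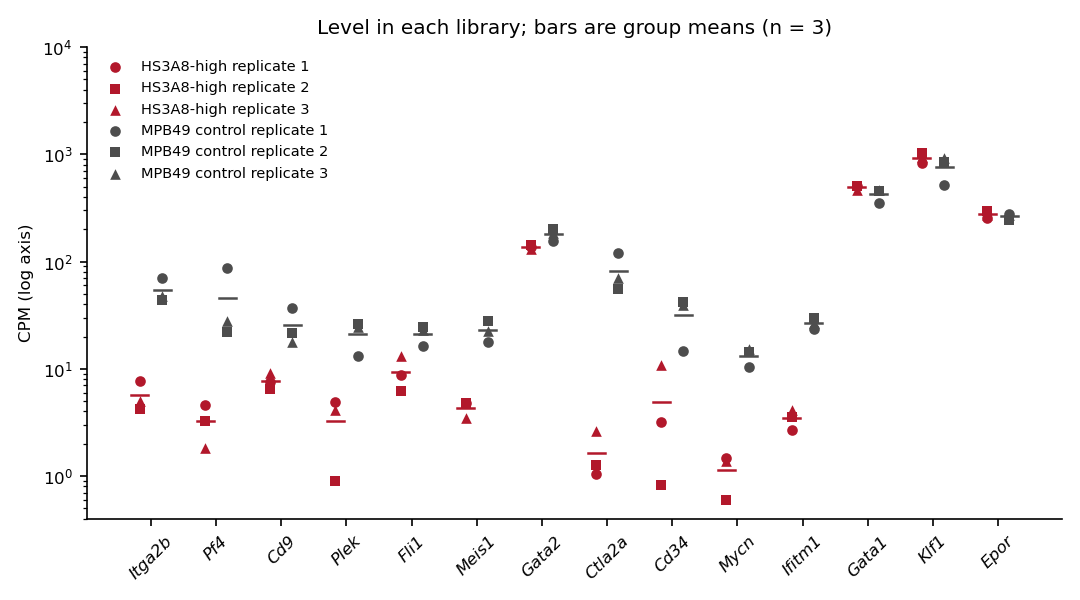
CPM on a log axis for 14 genes, with each library as a point, replicate numbers as shapes, HS3A8-high in red, MPB49 control in grey, and bars for group means (n = 3). The megakaryocyte and stem cell genes from Itga2b to Ifitm1 do not overlap between groups, by a narrow margin in Fli1 and Gata2, whereas Klf1 and Epor overlap and Gata1 lies within a narrow range in both.

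Genes of stem and multipotent progenitors formed the other low group. Of 28 listed, 22 were tested and 16 of them were lower without overlap, against 7.19% of all genes tested. The median log2 fold change was -1.66. It stayed between -1.66 and -1.56 with control replicate 1, HS3A8-high replicate 3 or both left out. Besides Ctla2a, DESeq2 called 9 of the 22, against 1.2% of all genes tested. Adgrg1, an adhesion receptor and the most abundant member, stood at 352, 282 and 276 CPM against 394, 489 and 455 CPM, a log2 fold change of -0.56 ± 0.162. Lmna, which encodes the nuclear lamins A and C, went the other way at 0.24 with overlapping groups.

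Mycn, a MYC family factor of stem cells, stood at 1.46, 0.597 and 1.37 CPM against 10.4, 14.3 and 15.2 CPM, with a wide gap between the groups (log2 fold change -3.52 ± 0.409, adjusted p = 0.0755 by edgeR, and 1.49e-14 to 0.635 over the alternatives). Angpt1, the ligand angiopoietin 1, stood at 13.2, 13.1 and 7.43 CPM against 34.4, 46.1 and 34 CPM. Its receptor Tek stood at 2.08, 1.49 and 1.11 CPM against 7.24, 6.29 and 6.57 CPM. Ligand and receptor transcripts were thus both lower in every HS3A8-high library, at log2 fold changes of -1.76 and -2.1, and neither passed edgeR's test (adjusted p = 0.197 and 0.213). Hlf, a stem cell factor, was at -1.92 and Sox4 at -1.56, where 54.6% of exonic bases of Sox4 overlap another gene. Mllt3 at -0.03 and Msi2 at 0.12, both stem cell regulators, overlapped between groups and were at 0.04 and -0.11 without control replicate 1. These members other than Adgrg1, Lmna and Ctla2a were chosen after their values were seen.

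The genes behind the sort gate gave a mixed picture. Kit, which both groups were gated to carry, stood at 775, 610 and 484 CPM in HS3A8-high and 415, 688 and 567 CPM in the controls, with no gap between the groups. Cd34, whose protein the gate excludes, stood at 3.18, 0.821 and 10.8 CPM against 14.6, 41.7 and 39.6 CPM, lower in every HS3A8-high library (log2 fold change -2.69 ± 0.839, adjusted p = 0.733 by edgeR). Ly6a, the stem cell antigen Sca-1, stood at 0.305, 0 and 0.261 CPM against 2.06, 1.57 and 2.38 CPM, and Ptprc, the common leukocyte antigen CD45, at 38.8, 28.8 and 44.3 CPM against 51.4, 49.8 and 53.9 CPM. The Fc receptor genes Fcgr3 and Fcgr2b reached 17.5 and 7.69 CPM in HS3A8-high replicate 3 and were at most 1.59 CPM in each of the other 5 libraries, and Itgam (CD11b) was at 5.48 CPM in that library and at most 2.2 CPM elsewhere. Cd3e, Cd4, Cd8a, Ly6g and Ly6c1 were below the filter, with at most 15 counts in any library.

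Transcripts of other blood lineages were scarce in most libraries, with HS3A8-high replicate 3 as the exception. In the granulocyte and monocyte list (22 genes, 15 tested) the sign turned on 1 library. Mpo, the myeloperoxidase of granule precursors, stood at 5.8, 2.46 and 702 CPM in HS3A8-high and 19.5, 114 and 83.7 CPM in the controls. Elane, neutrophil elastase, stood at 1.4, 0.224 and 335 CPM against 4.38, 26.2 and 13.7 CPM, and Lyz2, lysozyme, at 4.95, 3.51 and 416 CPM against 50.4, 16.5 and 20.7 CPM. HS3A8-high replicate 3 was thus far above the controls and the other HS3A8-high libraries below them. The list's median log2 fold change was 2.04 with all libraries and -2.37 without that one. HS3A8-high replicate 3 was set apart by its level of these same genes, so fits without that library cannot decide their direction. With all 6 libraries edgeR called 0 of the 15. Without HS3A8-high replicate 3 and control replicate 1 together, edgeR called 8 of the 14 genes with a value, all lower in HS3A8-high. The share over all genes tested was 1.52%. Of 14 basophil, mast cell and eosinophil genes 4 were tested, with 1 lower without overlap, against 7.19% of all genes tested. Their median was -0.21, or -1.67 without HS3A8-high replicate 3. Prss34 and Mcpt8, proteases of basophils below the filter, followed the same library with 601 and 280 counts. They had 97 and 30 counts in control replicate 1 and at most 8 counts elsewhere.

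T and NK cell genes had a negative log2 fold change in 8 of 8 members tested of 18 listed. Of the 8, 5 were lower without overlap, against 7.19% of all genes tested. Tcf7, a T lineage factor also used by stem cells, stood at 1.04, 0.299 and 0.717 CPM against 11.6, 12.5 and 11.8 CPM, with the controls close together (log2 fold change -4.1 ± 0.45, adjusted p = 0.0755 by edgeR, and 6.05e-18 to 0.616 over the alternatives). Trbc1, a T cell receptor constant segment, stood at 0.305, 0.149 and 0.783 CPM against 23.3, 6.48 and 3.76 CPM, where control replicate 1 was the high one. Nkg7, a granule protein of killer cells, stood at 7.27, 3.73 and 25.2 CPM against 61.9, 40.6 and 33.9 CPM. The defining T cell genes Cd3e, Cd3d, Cd3g and Trac had at most 16 counts in any library, so genes that define T cells were almost all near 0 in both groups. The summed level of the list was 4.55 to 40.9 CPM in HS3A8-high and 60.4 to 134 CPM in the controls.

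The macrophage and dendritic cell list (14 genes, 8 tested, 5 lower without overlap, median -1.61) was carried by class II antigen presentation. Of all genes tested, 7.19% were lower without overlap. Cd74, the class II invariant chain, stood at 8.91, 6.87 and 18.6 CPM against 96.9, 47.3 and 33.5 CPM, and H2-Ab1 at 23.1, 25.3 and 27.8 CPM against 76.6, 51.7 and 36.9 CPM. H2-Aa had a log2 fold change of -2.09. Adgre1 and Itgax, which define macrophages and dendritic cells, were below the filter, with 86 counts of Adgre1 in HS3A8-high replicate 3 and at most 1 elsewhere. For 14 B lymphoid genes, 6 tested, the median was -0.8 and 1 gene, Dntt, did not overlap, at 19.4, 4.18 and 21.3 CPM against 25, 35.3 and 23.8 CPM. Ighm, the IgM heavy chain, stood at 8.36, 1.72 and 35 CPM against 21.5, 19 and 17.9 CPM. Pecam1, an adhesion molecule of endothelium that platelets and progenitors also carry, had a log2 fold change of -1.05, and of the other 11 endothelial and stromal genes 1, Col1a2, was tested. Col1a2 was at -1.2. Cdh5, which defines endothelium, had 0 counts in all 6 libraries. The part of other cells in the differences was not tested.

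**Figure D3:**
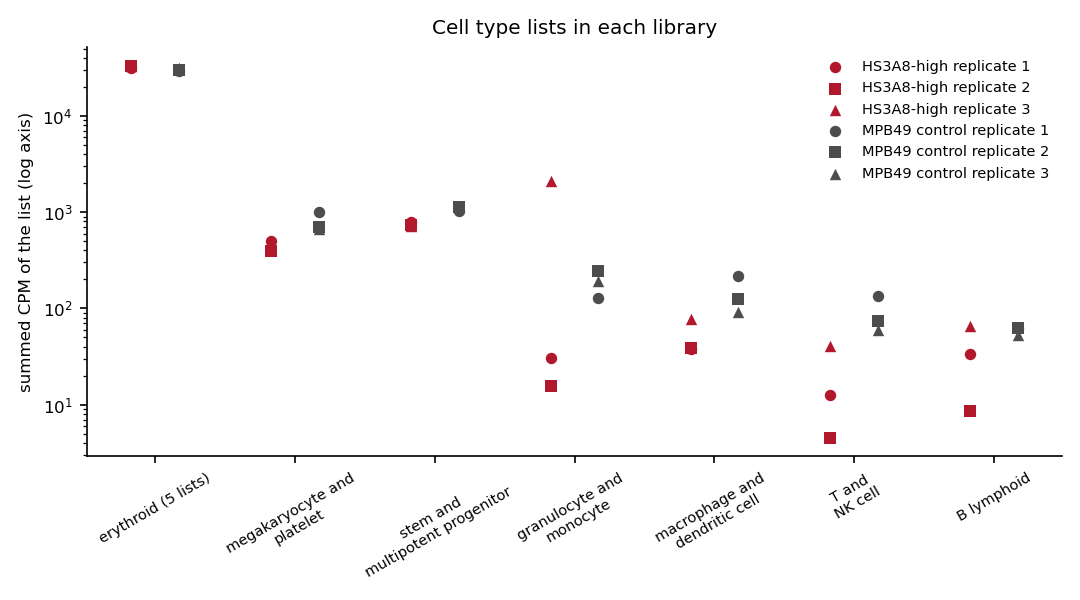
Summed CPM of each cell type list on a log axis, 1 point per library, HS3A8-high in red and MPB49 control in grey. The erythroid sum is 29280 to 33280 CPM in all 6 libraries, the megakaryocyte sum 395 to 500 CPM in HS3A8-high and 670 to 1001 CPM in the controls, and the granulocyte and monocyte sum is 2091 CPM in HS3A8-high replicate 3 and at most 242 CPM in the other libraries.

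On the erythroid side the gaps were small. None of the 72 erythroid genes tested, of 78 listed in 5 groups, passed the test by edgeR or DESeq2, and 11 were higher without overlap, where 6.77% of all genes tested were. Their median log2 fold change was 0.16, and 0.1 without control replicate 1. The summed level of the 5 groups was 31200, 33280 and 32670 CPM in HS3A8-high and 29280, 29920 and 31340 CPM in the controls, with every HS3A8-high library but replicate 1 above every control.

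The study checked 5 erythroid genes by RT-PCR, also between HS3A8-high and HS3A8-low MEPs rather than against mock-sorted MEPs. Of these, Gata1, the master factor of the lineage, stood at 501, 504 and 466 CPM in HS3A8-high and 352, 454 and 462 CPM in the controls (log2 fold change 0.21 ± 0.154, adjusted p = 0.733 by edgeR). The groups did not overlap, by a narrow margin. Klf1, the Krüppel-like factor of the β-globin locus, stood at 829, 1017 and 945 CPM against 512, 842 and 916 CPM. Its log2 fold change of 0.3 ± 0.234 came to 0.09 without control replicate 1, the low library. Ermap, an erythroid membrane protein, was at 0.33 (0.16 without it), Klf3 at 0.5 (0.35 without it) and Epor, the erythropoietin receptor, at 0.06 ± 0.133 (0.1 without it). All 5 were positive, and 2, Gata1 and Ermap, were higher without overlap.

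Of 18 erythroid transcription factors 17 had a positive log2 fold change, with a median of 0.32 that came to 0.12 without control replicate 1. E2f4, an E2F factor needed for red cell maturation, was at 0.4 and 0.19, and Tcf3, the E protein that pairs with TAL1, at 0.28 and 0.12. Heme synthesis genes (16 tested) had a median of 0.01. Cpox stood at 621, 624 and 612 CPM against 377, 553 and 604 CPM, and Tmem14c, a mitochondrial porphyrin carrier, was at -0.59 with 1040 CPM in control replicate 1 and at 0 without it. Among membrane and surface genes (23 tested, median 0.12), the carbonic anhydrases Car2 and Car1 were the most abundant. Car1 stood at 5154, 5672 and 5389 CPM against 5038, 5003 and 5031 CPM, a gap that was small and did not depend on control replicate 1 (log2 fold change 0.1 and 0.12), and Car2 was at 0.12 with overlapping groups. Aqp1, the red cell water channel, was at 0.22, or 0.08 without control replicate 1.

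Iron genes (11 tested) had a median of 0, with Fth1 and Ftl1, the ferritin chains, at -0.02 and -0.09, and Pcbp1, an iron chaperone, at 0.19. Globin transcripts were still scarce. Hba-a1 stood at 59.8, 63.2 and 134 CPM against 69.5, 54.9 and 75.2 CPM, and Hbb-bs at 4.82, 5.75 and 45 CPM against 26.8, 5.6 and 6.07 CPM. HS3A8-high replicate 3 was the highest library for both and control replicate 1 the second highest for Hbb-bs. The median of the 4 globins tested turned from 0.45 to -0.6 without HS3A8-high replicate 3. Adult globin copies are near identical, and how reads were divided among them is not known.

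Genes that build HS did not separate the groups by any test. HS3A8-high MEPs were sorted on an HS epitope, whereas the mock-sorted controls hold cells of high and low binding alike. Of 57 genes in 5 lists 36 were tested, 25 had a positive log2 fold change, and the median was 0.18, or 0.07 without control replicate 1. No edgeR, DESeq2 or voom fit called any of them. Of the 36, 1 was higher and 1 lower without overlap, against 6.77% and 7.19% of all genes tested. Among core proteins, Gpc4, glypican 4, stood at 37.6, 41.4 and 41 CPM in HS3A8-high and 26.8, 31.7 and 24.6 CPM in the controls, 1 of the 2 HS genes whose groups did not overlap. Its log2 fold change was 0.53 ± 0.159, a 1.44-fold higher level, and 0.52 without control replicate 1 (adjusted p = 0.705 by edgeR, and 0.116 to 0.947 over the alternatives). In the fit of all 9 libraries, where both HS3A8 groups are set against the same 3 controls, the log2 fold change of Gpc4 was -2.97 in HS3A8-low MEPs and 0.52 in HS3A8-high. In the same fit the HS3A8-low values were 0.51 for Ctla2a, 0.92 for Ifitm1, 0.73 for Itga2b and 0.44 for Pf4, beside -5.66, -2.95, -3.26 and -3.83 in HS3A8-high.

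Srgn, serglycin, the proteoglycan of secretory granules, was the other gene without overlap, at 184, 208 and 219 CPM against 510, 264 and 259 CPM. Control replicate 1 was the high library, and the log2 fold change was -0.76 with it and -0.35 without it. Agrn, agrin, was at -0.71 ± 0.306 and overlapped between groups, Tgfbr3, betaglycan, was at 0.1 and Cd44 at 0.21, and without control replicate 1 they were at -0.41, -0.06 and 0.14. Gpc1 reached 9 CPM in HS3A8-high replicate 3 and at most 1.64 CPM elsewhere. The syndecans Sdc1, Sdc2 and Sdc3 were all under 8 CPM, with log2 fold changes of 0.27, -0.6 and 1.27, or 0.07, -0.46 and 0.41 without HS3A8-high replicate 3, and Gpc2 and Col18a1 under 4 CPM, at -0.31 and -1.38. Gpc3, Gpc5, Gpc6, Sdc4, Hspg2 and Nrp1 were below the filter.

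For the linker, all 7 genes were tested and lay between -0.13 and 0.29. They were the xylosyltransferases Xylt1 at 0.25 and Xylt2 at 0.13, the galactosyltransferases B4galt7 at -0.13 and B3galt6 at 0.06, the glucuronyltransferase B3gat3 at 0.03, and the xylose kinase Fam20b at 0.22 with its counterpart phosphatase Pxylp1 at 0.29. Of the exostosins that polymerize the chain, Ext1 stood at 74.4, 55.3 and 63.3 CPM against 48.1, 57.4 and 58.4 CPM (log2 fold change 0.24 ± 0.167) and Ext2 was at 0.2. Extl3, which starts the chain, was at 0.53 ± 0.345 with all libraries and 0.26 without control replicate 1. Extl2 was at 0.38.

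Of the enzymes that modify the chain, 6 of 16 passed the filter. Hs6st1, the main 6-O-sulfotransferase here, stood at 199, 109 and 181 CPM against 83.6, 124 and 160 CPM, and the spread within each group was as wide as any gap between them (0.41 ± 0.306, or 0.21 without control replicate 1). Ndst2, an N-deacetylase and N-sulfotransferase, stood at 120, 119 and 106 CPM against 88.1, 105 and 114 CPM (0.16 ± 0.152). Hs2st1, the 2-O-sulfotransferase, was at 0.07, Glce, the epimerase, at -0.1, Ndst1 at 0.22 and Ndst3 at -0.59. All 7 listed 3-O-sulfotransferases were below the filter, with at most 4 counts in any library, as were Hs6st2, Hs6st3 and Ndst4. Of the genes for sulfate supply and editing, Slc35b2 and Slc35b3, which carry the sulfate donor into the Golgi, were at -0.31 and -0.87 with control replicate 1 and at 0.01 and -0.03 without it. Slc26a2, a sulfate transporter, Papss1 and Papss2, which make the donor, and Ugdh and Ugp2, which supply the uronic acid, were at 0.49, 0.4, 1.94, 0.12 and -0.2. Papss2 rested on HS3A8-high replicate 3, with 0.0611, 1.72 and 10.2 CPM against 0, 2.58 and 0.433 CPM, and was at -0.24 without it, while Slc26a2 was low in control replicate 1 and was at 0.11 without that library. Heparanase, Hpse, reached 5.22 CPM in HS3A8-high replicate 3 and at most 1.26 CPM elsewhere. The endosulfatases Sulf1 and Sulf2, with Hpse2, were below the filter.

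The study drew a heptad of HS genes from single cells, as enriched in MEPs over other progenitors and in erythroid cells. The comparison here lies within MEPs and is a different one. The heptad (the cores Agrn, Gpc4 and Tgfbr3 and the enzymes Ext1, Hs6st1, Ndst2 and Extl3) had 6 of 7 positive values and a median of 0.23, or 0.16 without control replicate 1. In chondroitin sulfate synthesis, which competes for the same linker, 10 of 16 genes were tested with a median of 0.17, or -0.01 without it. Its most abundant members, Csgalnact2, Chst12 and Chpf2, were at -0.12, 0.29 and 0.18.

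**Figure D4:**
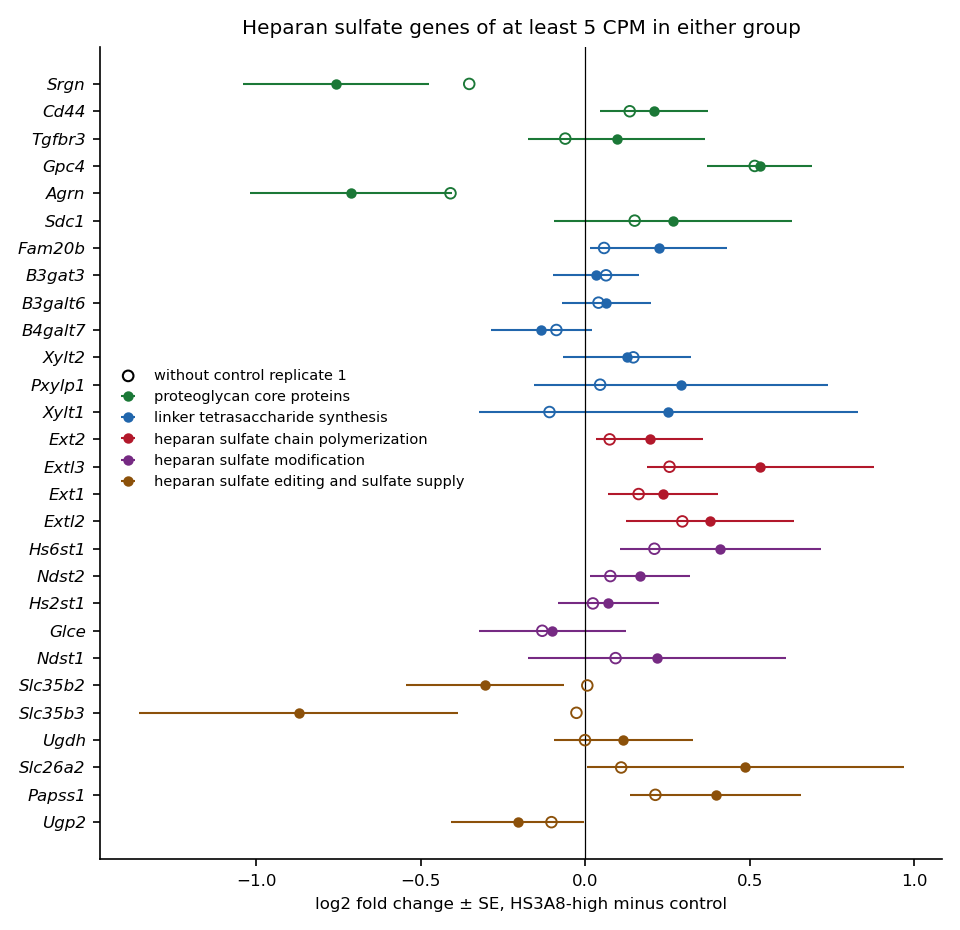
Log2 fold change of HS3A8-high minus control for the HS genes of at least 5 CPM in either group, coloured by role, as filled points with the SE of the edgeR fit from 6 libraries, and as open circles without control replicate 1. Gpc4 holds its value of 0.53 without that library (0.52), whereas Srgn moves from -0.76 to -0.35 and Slc35b3 from -0.87 to -0.03.

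Cell cycle genes lay slightly higher in HS3A8-high. All 20 G2 and mitosis genes were tested, 18 were positive, and 8 were higher without overlap, against 6.77% of all genes tested. The median log2 fold change was 0.24, or 0.16 without control replicate 1, when all 20 were positive. Ccnb1, cyclin B1, stood at 482, 468 and 457 CPM against 406, 399 and 390 CPM, tight in both groups (0.24 ± 0.121, adjusted p = 0.733 by edgeR) and at 0.26 without control replicate 1. Cdc20, the activator of the anaphase-promoting complex, stood at 304, 347 and 318 CPM against 249, 296 and 280 CPM, and Top2a was at 0.3, or 0.08 without control replicate 1. None of the 20 passed a test by edgeR or DESeq2. The 20 S phase genes had a median of 0.16, or 0.04 without control replicate 1. Mcm6 and Mcm5 of the replicative helicase and Rrm1 of ribonucleotide reductase were at 0.11, 0.26 and 0.33, and at -0.03, 0.04 and 0.06 without it. Of D cyclins and CDK inhibitors, Cdk4 was at -0.09, Ccnd3 at 0.13 and Ccnd2 at 0.3.

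Immediate-early genes are switched on within minutes of a stimulus and also of handling. They were lower without overlap in 12 of 18 tested, against 7.19% of all genes tested, with a median of -1.1. Control replicate 1 was the highest library for most of them, and without it the median was -0.56. Fos, of the AP-1 complex, stood at 254, 242 and 339 CPM against 569, 365 and 382 CPM, and its partner Jun at 117, 115 and 144 CPM against 491, 178 and 218 CPM. Every control exceeded every HS3A8-high library in both. The log2 fold changes were -0.66 and -1.24, and -0.42 and -0.65 without control replicate 1. Egr1, a zinc finger factor, stood at 22.6, 9.93 and 13.7 CPM against 108, 49.2 and 43.6 CPM (-2.11, or -1.57 without it). Myc, the most abundant of the list, was at 0.1. DESeq2 called 5 of the 18, against 1.2% of all genes tested. Heat shock genes, which handling can also move, had a median of -0.02, with Hspa8 at -0.03, Hsp90ab1 at 0.19 and Hsp90aa1 at 0.3.

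Class I presentation and interferon genes (16 tested, 15 negative) had a median of -0.22, or -0.06 without control replicate 1. Of these genes, 7 were lower without overlap, against 7.19% of all genes tested. The abundant members H2-D1, B2m and H2-K1 were at -0.28, -0.16 and -0.43, and -0.09, -0.03 and -0.2 without it. The largest negative value of the list was that of Ifitm1, followed by Irf1, an interferon regulatory factor, at -1.6 and -0.82 without control replicate 1. Of cytokine receptors, Kit and Epor among them, 15 were tested, with a median of -0.18 and 2 lower without overlap, against 7.19% of all genes tested. Cd47, listed with them as a surface signal, stood at 496, 485 and 474 CPM against 714, 498 and 509 CPM. Ifngr1, the interferon gamma receptor chain, was at -0.05. Glycolysis genes (16 tested) had a median of 0.18, or 0.06 without control replicate 1, with Ldha at 0.06, Gapdh at 0.25 and Hk1 at 0.35, and at 0.05, 0.11 and 0.06 without it. Cholesterol genes (20 tested) had a median of 0.08, with Srebf2 at 0.13 and Fdps at 0.09. Ribosomal protein genes (80 tested of 83) and mitochondrially encoded genes (11 of 13) had medians of -0.72 and -0.63 with control replicate 1 and -0.01 and 0.16 without it.

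**Figure D5:**
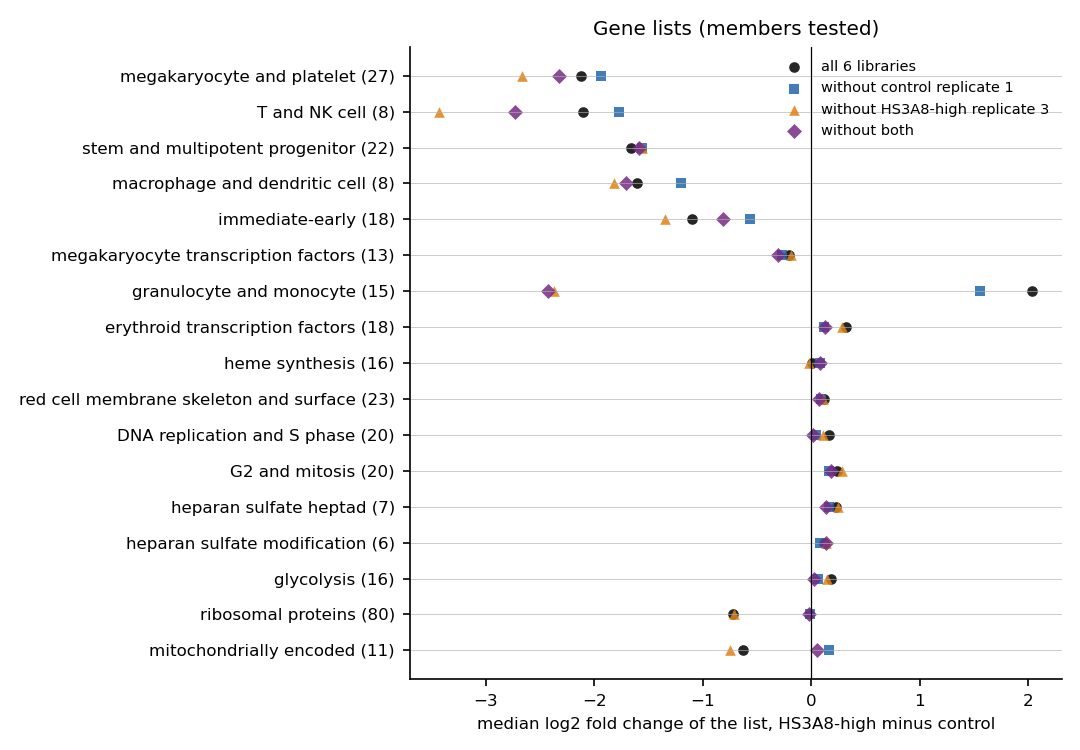
Median log2 fold change of selected gene lists, HS3A8-high minus control, with all 6 libraries and with control replicate 1, HS3A8-high replicate 3 or both left out; the number of members tested stands beside each name. The megakaryocyte and platelet, stem cell, T cell and macrophage lists stay below -1 in each case, whereas megakaryocyte transcription factors lie between -0.31 and -0.19. The cell cycle, HS and erythroid lists drawn stay close to 0, and the granulocyte and monocyte, ribosomal and mitochondrial medians turn on 1 library.

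The sizes of the differences were unequal in the 2 directions, but a part was set here against a whole that contains it. A rise is bounded near a log2 fold change of 1 and a fall is not. The counts at that size therefore do not measure how many genes differ in each direction. Without overlap, 826 genes were lower in HS3A8-high and 778 higher, and 415 of the first but 22 of the second reached a log2 fold change of 1 in size. Where the mean of the higher group reached 5 CPM, 192 of 539 lower genes and 4 of 719 higher genes did so, with medians of -0.69 and 0.31. The 4 were Zfp628, Rgs9bp, Mpst and Taf15, at log2 fold changes of 1.1, 1.13, 1.38 and 1.01, none with an adjusted p under 0.05 by edgeR, DESeq2 or voom. Without control replicate 1 the median of all 826 lower genes went from -1.01 to -0.69 and that of the 778 higher genes from 0.32 to 0.19.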

How the data were processed

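Bulk RNA-seq counts of 6 libraries were analysed, 3 of HS3A8-high and 3 of MPB49 control MEPs. Per the study's methods, the authors used a low-input protocol, and STAR aligned the reads against mm10 transcripts. The deposited values are raw, unnormalized counts. The submitters' processing notes name STAR 2.5 and HTSeq 0.6.1, and the strand setting and annotation release of the counting are not given in the sources used here. Of 35275 identifiers, 34490 were matched to symbols and coordinates of GENCODE M21 on GRCm38.

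Counts were tested in R 4.3.3 with edgeR 4.0.16 (filterByExpr, TMM, quasi-likelihood test, no covariates) and Benjamini-Hochberg adjustment at 0.05. An exact permutation test of 3 against 3 libraries cannot go below p = 0.1, so single genes were judged by this fit. Groups were said not to overlap when every TMM-scaled CPM of one lay beyond every CPM of the other. No count was added to the CPM. The alternatives were DESeq2 1.42.0, voom with sample quality weights of limma 3.58.1, other normalizations and filters, all 9 libraries, a replicate block, a fold threshold and each library left out. Leaving out control replicate 1 with HS3A8-high replicate 3, and removal of each library's transcript length trend, were added after seeing the data. The procedure was tested on simulated counts, where DESeq2 called more unchanged genes than edgeR. In the same counts edgeR missed most genes changed 2-fold in either direction and recovered fewer of them than DESeq2. The simulated libraries held no library that stood apart.

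The 35 gene lists and the genes in them were chosen with earlier results of these data known. Lists are described by counts and medians, with no set test. Named were the called genes with at least 5 CPM and no overlap, the RT-PCR genes and the heptad, up to 6 called and the 3 most abundant members of each list, every sort gate and HS gene, and genes said to have been chosen after their values were seen. Some genes are not reported here. Library totals set the precision, and limits drawn from counts hold for counting error alone, since no molecular identifiers were used.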

Additional observations from a re-analysis of the deposited data

How the results depend on the processing

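The 2 genes called, both lower in HS3A8-high, became 138 (0 higher and 138 lower) by the DESeq2 test, 100 by voom with sample quality weights (2 higher, Gm16153 and Rap1gap2, and 98 lower), 9 (all lower) with no count filter, 32 (all lower) with all 9 libraries in 1 fit, and 175 (all lower) with control replicate 1 and HS3A8-high replicate 3 both left out. With 1 library left out at a time the count was 0 to 5, all lower. DESeq2 size factors, no TMM, a mean count of at least 10, a log2 fold change of at least 1 and removal of the length trend gave 2, 3, 2, 2 and 3, the last without Ifitm1. The causes were not tested. Of the 138 genes of DESeq2, 87 were also called by voom and 65 without the 2 libraries that stand apart. The biological coefficient of variation was 0.314 with 6 libraries, 0.215 without control replicate 1 and 0.143 without both. Replicate numbers were not taken as pairs in the main fit. Deviations of libraries of the same number correlated at -0.248, -0.145 and -0.0645. With 3 libraries a group, these values cannot tell whether libraries of the same number share an animal. The replicate block gave 0 calls by edgeR, with 356 genes at an unadjusted p under 0.05 against 562 without it.

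For 18 single genes, 283 of 288 values under an alternative had the sign of the main value, and for 38 lists and groups of lists 508 of 608 medians stayed within 1 SD of the HS3A8-high libraries. Genes under about 1 CPM in HS3A8-high rest on few counts, and their folds are loose. With 3 libraries a group and 1 control apart, small gaps such as those of the erythroid and HS genes could not be resolved.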

Other observations

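Several genes outside the lists, chosen after their values were seen, were lower in HS3A8-high by DESeq2. Apoe, apolipoprotein E, was the most abundant of the 138 genes called by DESeq2, at 202, 200.2 and 199 CPM in HS3A8-high replicates 1, 2 and 3 and 519, 417 and 354 CPM in the controls. The HS3A8-high libraries lay close together, and the log2 fold change was -1.1 with all libraries and -0.94 to -1.22 with 1 left out (adjusted p = 0.197 by edgeR and 2.76e-05 by DESeq2, and 2.76e-05 to 0.842 over the alternatives). Slc18a2, a vesicular monoamine transporter that loads platelet dense granules, stood at 6.35, 4.11 and 6.98 CPM against 35.7, 21.4 and 22.4 CPM. Pear1, a platelet aggregation receptor, stood at 1.28, 0.448 and 1.5 CPM against 16.1, 10.6 and 14 CPM. Dok2, an adaptor of tyrosine kinase signalling, stood at 4.82, 3.21 and 5.28 CPM against 33.5, 22.4 and 17.3 CPM. None of the 3 overlapped between groups, with Pear1 near the limit of counting in HS3A8-high, and their log2 fold changes were -2.18, -3.63 and -2.45.

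Rgs1, a regulator of G protein signalling, stood at 1.4, 0.896 and 6.06 CPM against 46.7, 29.2 and 24.4 CPM, and Serpina3g, a protease inhibitor of haematopoietic cells, at 3.66, 0.523 and 2.41 CPM against 23.8, 36.9 and 36.3 CPM. Both were lower in every HS3A8-high library, by log2 fold changes of -3.57 and -3.86. Tmsb4x, thymosin β4, an actin-binding protein, stood at 19.2, 21.2 and 166 CPM against 752, 113 and 135 CPM, so HS3A8-high replicate 3 and control replicate 1 decided its value, and Vim, vimentin, stood at 5.13, 3.66 and 37.8 CPM against 41.3, 37.3 and 29.4 CPM. Without these 2 libraries, a choice made after seeing the data, their log2 fold changes were -2.61 and -2.9, each past an adjusted p of 0.05 by edgeR, against -2.28 and -1.21 with all 6. That fit leaves out the HS3A8-high library in which both genes were high, so it cannot decide whether the groups differ.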
